A study of Mus musculus with 6 samples.

Results

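Tph2, Slc6a4 and Maob, 3 genes known from serotonin neurons, were followed through 6 RNA-seq libraries of the mouse midbrain. They were picked by symbol and make up 3 of the 5538 genes in the deposited table. The tissue was the perioculomotor (pIII) region, the midbrain around the nucleus of the oculomotor nerve, of C57BL/6 mice. All mice carried CreER, a drug-dependent recombinase, driven by the promoter of the activity-regulated gene Fos, and a Cre-inducible eGFP-L10a reporter, which tags ribosomes in cells where Cre has acted. The Fos promoter is active in many cell types, so the tag is not restricted to one class of neuron. Each mouse had 6 hr of sleep deprivation and 3 hr of recovery sleep, with an injection of 4-OHT, which activates CreER, directly before one of these phases. The series text speaks of neurons tagged in recovery sleep (RS-eGFP), while the single libraries are labelled only IP or Input with a number from 1 to 3. IP is RNA bound by tagged ribosomes and recovered with antibodies against eGFP, and Input is taken here as RNA of the same tissue before that step. Each repeat pooled 4 to 5 mice, so the spread between libraries is one between pools. Age, sex and the phase tagged are not given for the single libraries in the sources used here.

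Serotonin neurons of the midbrain lie in the raphe nuclei on and near the midline. The dorsal raphe, the main source of serotonin in the forebrain, lies under the aqueduct just behind the oculomotor complex. Tryptophan hydroxylase 2 (Tph2) carries out the rate-limiting step of serotonin synthesis in neurons, the decarboxylase Ddc completes it, and the vesicular transporter Slc18a2 loads the product into vesicles. The plasma membrane transporter Slc6a4 takes released serotonin back up, and monoamine oxidase B (Maob), on the outer mitochondrial membrane, degrades monoamines. Tph2 and Slc6a4 are used as markers of serotonin neurons in the brain, whereas Maob is known from astrocytes and histamine neurons too, and Ddc and Slc18a2 serve dopamine and noradrenaline neurons as well.

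Tph2 (ENSMUSG00000006764) lies on chromosome 10 from 115078641 to 115185022 on the minus strand, and its longest annotated transcript has 11 exons and 2626 bases. Slc6a4 (ENSMUSG00000020838) lies on chromosome 11 from 76998603 to 77032340 on the plus strand, with 15 exons and 2796 bases. Maob (ENSMUSG00000040147) lies on chromosome X from 16709282 to 16817366 on the minus strand, with 15 exons and 2411 bases. These positions are from GENCODE M21 on GRCm38, the assembly of the mm10 build. No annotated gene overlaps Tph2 or Maob. The antisense gene Gm12343 (77008914 to 77009873, minus strand) lies within Slc6a4 and has no row of its own in the table. Whether it shares exon bases with Slc6a4 was not checked. Without stated strand information, reads from any shared bases could not be told apart from those of Slc6a4.

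Because the levels of the 3 genes varied together between libraries, as described below, the 250 bases before the start of each were read from the RefSeq promoter table on GRCm38.p6, which matched 2 of the 3 genes, Tph2 and Slc6a4. Capitals mark AGATAA (the GATA motif), TATAAA (the TATA box) and GGGCGG (the GC box), searched on both strands, and each sequence runs 5′ to 3′ on the strand of its gene.
Tph2, chr10:115185023-115185272, minus strand: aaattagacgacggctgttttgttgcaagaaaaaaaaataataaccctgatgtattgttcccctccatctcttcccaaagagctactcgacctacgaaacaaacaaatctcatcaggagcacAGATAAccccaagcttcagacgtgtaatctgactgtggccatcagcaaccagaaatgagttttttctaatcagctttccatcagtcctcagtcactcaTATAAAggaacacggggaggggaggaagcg
Slc6a4, chr11:76998347-76998596, plus strand: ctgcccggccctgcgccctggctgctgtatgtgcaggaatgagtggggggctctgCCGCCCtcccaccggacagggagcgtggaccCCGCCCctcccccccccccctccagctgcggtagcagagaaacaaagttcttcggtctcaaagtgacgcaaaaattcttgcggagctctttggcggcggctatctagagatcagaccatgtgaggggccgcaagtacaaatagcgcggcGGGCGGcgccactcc
The 2 sequences differed in composition. The Tph2 stretch had 43.6% G or C and 7 CpG dinucleotides, and the Slc6a4 stretch 64.8% and 18, where the median of 32851 promoter windows of this length was 52.4% and 6. The Tph2 stretch held a TATA box that begins 30 bases before the start and a GATA motif that begins 128 bases before it. The Slc6a4 stretch held neither, and had 3 GC boxes, beginning 195, 164 and 15 bases before the start. Among all windows, 12.4% held TATAAA, 9.99% AGATAA and 32.7% GGGCGG. The core bound by ETS factors such as Fev, a regulator of serotonin neurons, is GGAA. It occurred 5 times in the Tph2 stretch and 1 time in the Slc6a4 stretch, but 93.4% of all windows hold it. No base was shared by matches to different motifs.

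The table gives TPM, a transcript abundance corrected for length and scaled to a fixed library total. It keeps no read depth, so no counting interval can be given. The lowest value listed is 7 TPM, and a gene that fell under this limit anywhere has no row. The median gene of a library stood between 27.7 and 67.2 TPM, lowest in IP 1 (27.7) and Input 3 (31.1). These 2 libraries stood apart from the others of their group. Across genes on the log2 scale, Input 3 correlated with Inputs 1 and 2 at r = 0.722 and 0.736, where those 2 correlated at 0.973. Input 3 also held 47 genes (0.849%) at more than 3 times their higher value in Inputs 1 and 2. Results are therefore given with all libraries and without Input 3. As markers of the labelled region, all 5 listed cholinergic and oculomotor genes (Chat, Slc18a3, Slc5a7, Isl1 and Prph) had a row. So did all 3 Edinger-Westphal peptide genes (Cartpt, Ucn and Cck). Every gene with a row has values in all libraries, so this does not measure the share of the region in a library.

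Tph2 stood high among the genes of Inputs 1 and 2 and much lower in Input 3. In Input 1, Tph2 stood at 1792 TPM, which placed it 43rd from the top of 5538 genes, and in Input 2 it stood at 1171 TPM, in place 87. Input 3 had 116 TPM and place 718. Among the IP libraries, Tph2 reached 765 TPM in IP 2 (place 112) and 575 TPM in IP 3 (place 185), while IP 1 had 121 TPM (place 835). Tph2 thus covered a 15.5-fold range, with Inputs 1 and 2 at the top, IP 2 and IP 3 between, and IP 1 and Input 3 close together at the bottom. The groups overlapped, because Input 3 lay under all IP libraries. The means were 487 ± 331 TPM in IP and 1026 ± 848 TPM in Input (SD, n = 3 each).

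Slc6a4, the serotonin transporter, stood at 500 TPM in Input 1, 319 TPM in Input 2 and 20.6 TPM in Input 3. In the IP libraries it stood at 35.5, 188 and 110 TPM. Its range was 24.2-fold, the widest of the 3 genes, and the means were 111 ± 76.5 TPM in IP and 280 ± 242 TPM in Input (SD, n = 3 each). Maob stood at 279, 194 and 15.9 TPM in Inputs 1 to 3 and at 19.9, 97.7 and 82.5 TPM in IP 1 to 3, a 17.5-fold range. Its means were 66.7 ± 41.3 TPM in IP and 163 ± 134 TPM in Input (SD, n = 3 each). Both genes repeated the order of libraries seen for Tph2, from Input 1 down through Input 2, IP 2, IP 3 and IP 1 to Input 3, and for both the groups overlapped through Input 3 alone. Of all 5538 genes, 194 (3.50%) had this order of TPM. With 1 value a library, the order between single libraries has no error of its own.

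**Figure D1:**
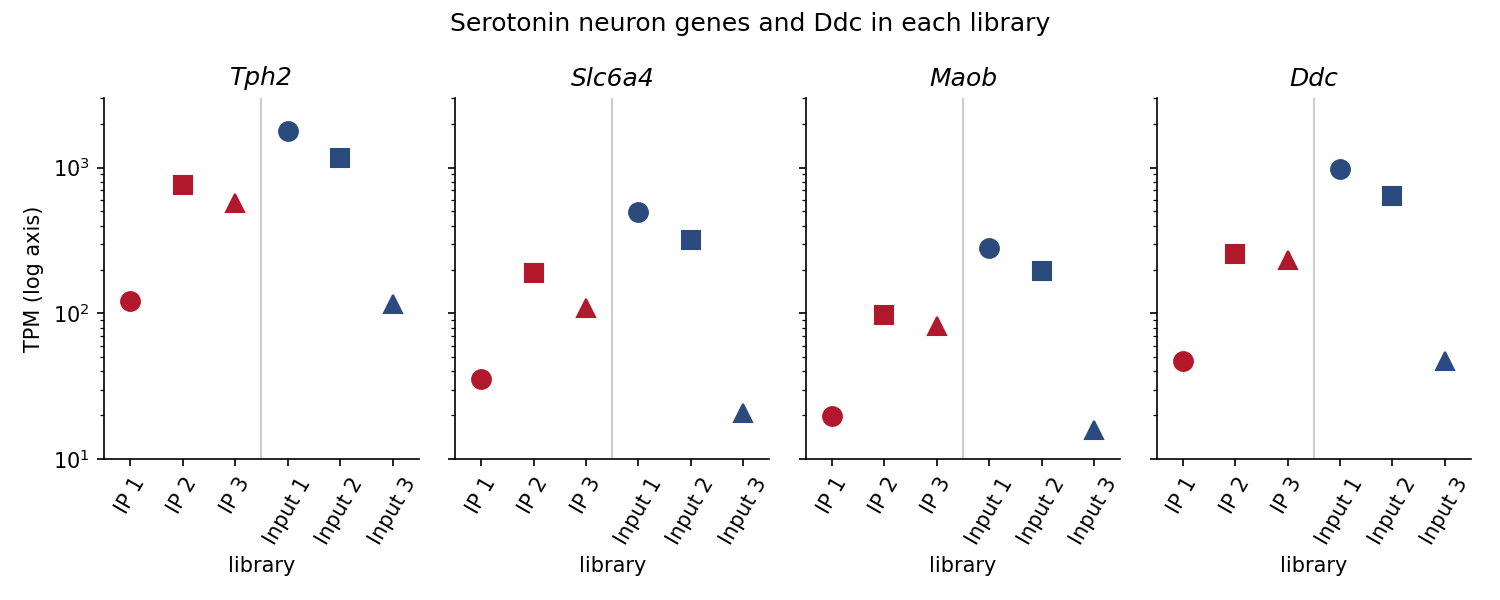
TPM (log axis) of Tph2, Slc6a4, Maob and the decarboxylase gene Ddc in each library, 1 point a library, with IP in red, Input in dark blue and circles, squares and triangles for numbers 1, 2 and 3. In all 4 panels Inputs 1 and 2 are highest, IP 2 and IP 3 follow, and IP 1 and Input 3 are lowest (Tph2 121 and 116 TPM).

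Part of this pattern was shared by genes at large, since the median gene was also low in IP 1 and Input 3. Each value was therefore set against the median gene of its own library. Tph2 stood at 27.9 and 17.4 times the median gene in Inputs 1 and 2 and at 3.72 times in Input 3. In IP 1, IP 2 and IP 3 it stood at 4.37, 13.5 and 11.3 times the median gene. Slc6a4 stood at 7.77 and 4.75 times the median gene in Inputs 1 and 2, but below it in Input 3, at 0.665 times. In the IP libraries it stood at 1.28, 3.33 and 2.15 times. Maob stood at 4.34 and 2.89 times the median gene in Inputs 1 and 2, and below it in IP 1 (0.718 times) and in Input 3 (0.513 times). In IP 2 and IP 3 it stood at 1.73 and 1.62 times. The order of the libraries was the same for all 3 genes after this scaling, an order found in 40 of the 5538 genes (0.722%).

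**Figure D2:**
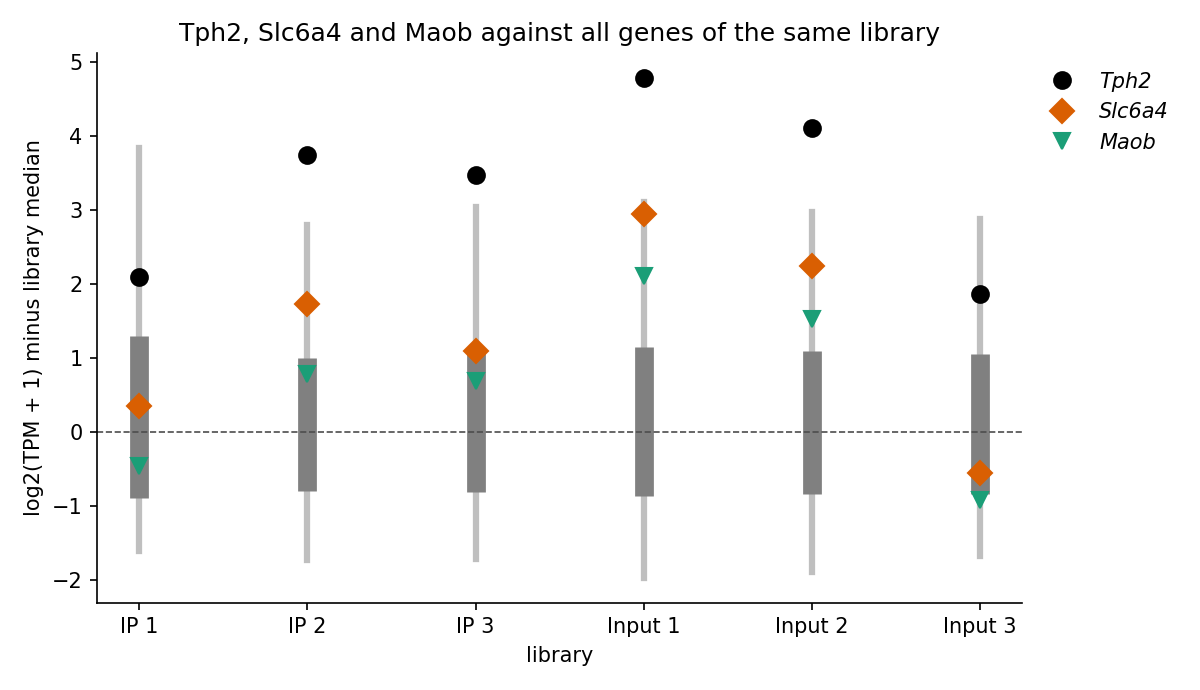
Log2(TPM + 1) of Tph2 (circles), Slc6a4 (diamonds) and Maob (triangles) after subtraction of the library's median gene, by library. Grey bars span the middle 50% and thin grey lines the middle 90% of the 5538 genes, the dashed line is the median gene, and Slc6a4 and Maob drop below it in Input 3 (-0.57 and -0.92).

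The difference among the Input libraries was larger than that between IP and Input. On the log2(TPM + 1) scale relative to the median gene, Input 3 lay below the mean of Inputs 1 and 2 by a Tph2 difference of -2.58, an Slc6a4 difference of -3.15 and a Maob difference of -2.73. Of the 5538 genes, 56, 28 and 48, or 1.01%, 0.506% and 0.867%, had a gap as low or lower. Input 3 is a single library, so these gaps are values with no test. IP 1 lay below the mean of IP 2 and IP 3 by differences of -1.51, -1.06 and -1.19 in the same order of genes. In bulk tissue, fewer serotonin neurons in a sample and less of these RNAs per neuron cannot be told apart. The table has no library of dorsal raphe alone, and the part of dissection in these differences was not tested.

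The 3 transcripts kept nearly constant proportions while their levels moved. Within a library, Tph2 exceeded Maob 6.03- to 7.83-fold, and the highest of these ratios was 1.30 times the lowest. Tph2 exceeded Slc6a4 3.41- to 5.60-fold, with the highest ratios in IP 3 (5.25) and Input 3 (5.60), and Slc6a4 exceeded Maob 1.30- to 1.93-fold. TPM correct for length, so these are ratios of transcript abundance, and the order Tph2, Slc6a4, Maob held in every one of the 6 libraries. Ddc stayed in step too. Its TPM were 977 and 634 in Inputs 1 and 2, 47.2 in Input 3, and 47.5, 257 and 233 in IP 1 to 3. Tph2 exceeded it 1.83- and 1.85-fold in Inputs 1 and 2 and 2.45- to 2.97-fold in the other 4 libraries. The ratios of Tph2 to the 9 pan-neuronal genes covered wider ranges, from 3.20-fold for the synaptic vesicle protein Syt1 and 3.49-fold for Stmn2 to 12.4-fold for the synaptic protein Snap25 (0.0469 in Input 3 to 0.580 in Input 1). Ratios of Tph2 to Th, a marker of catecholamine neurons (3.15-fold), and to the astrocyte gene Glul (2.75-fold) covered narrower ranges than these 9. Slc18a2, the vesicular transporter, did not stay in step with Tph2. It stood at 8.53 TPM in IP 1 and 31.9 TPM in Input 3, where Tph2 stood at 121 and 116 TPM.

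**Figure D3:**
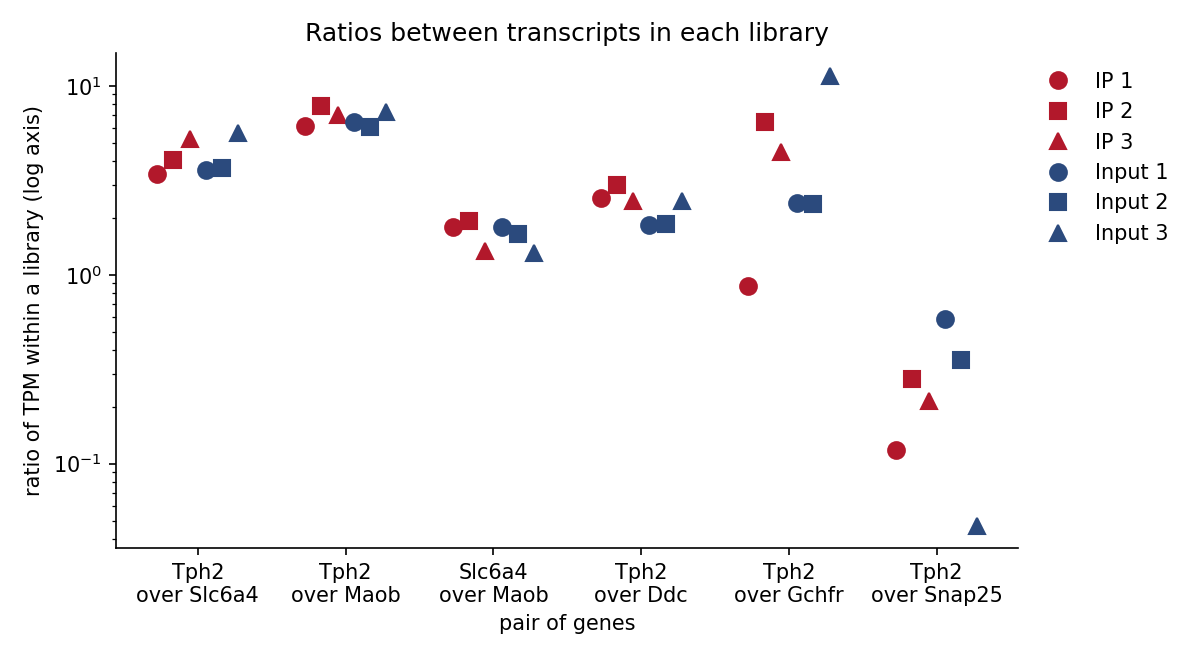
Ratio of TPM within a library (log axis) for 6 pairs of genes, 1 point a library, with IP in red, Input in dark blue and circles, squares and triangles for numbers 1, 2 and 3. The 4 ratios plotted among Tph2, Slc6a4, Maob and Ddc each cover at most a 1.64-fold range, whereas Tph2 over Gchfr covers a 13.0-fold range and Tph2 over Snap25, the widest of the 9 pan-neuronal ratios, a 12.4-fold range. Slc18a2 is not plotted.

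The comparison of IP with Input asks how far serotonin transcripts were present on tagged ribosomes relative to the tissue. Against all 3 Inputs, none of the 3 genes was called. Tph2 had a log2 difference of -0.48 (SE 0.80, 95% interval -2.35 to 1.38), or 0.715 times, with a limma adjusted p of 0.860. Slc6a4 had a difference of -0.48 (SE 0.87, interval -2.52 to 1.56; limma adjusted p = 0.867), and Maob one of -0.56 (SE 0.77, interval -2.38 to 1.25; limma adjusted p = 0.833). These intervals reach from a more than 4-fold lower to a more than 2-fold higher level in IP, so 6 libraries with this spread do not settle the direction. Exact permutation tests over the libraries gave two-sided p = 0.6, 0.7 and 0.6 for Tph2, Slc6a4 and Maob, where 0.1 is the smallest that 3 against 3 allows. In the table as a whole, limma called 0 of 5538 genes (0%) with adjusted p below 0.05. Without adjustment, 198 genes higher and 213 genes lower in IP had p below 0.05. The direction depended on single libraries: without Input 1 the differences were 0.11 for Tph2, 0.22 for Slc6a4 and 0.04 for Maob, and without IP 1 that of Tph2 was 0.02.

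Against Inputs 1 and 2 alone, the 3 genes were lower in each IP library than in either Input, also relative to the median gene. By TPM, 53.1% of all genes lay below both Inputs in this way, and relative to the median gene 1117 genes (20.2%) did. Tph2 had a log2 difference of -1.34 (SE 0.54, 95% interval -2.65 to -0.03), or 0.394 times its level in Inputs 1 and 2, Slc6a4 one of -1.53 (SE 0.45, interval -2.63 to -0.44), or 0.346 times, and Maob one of -1.48 (SE 0.44, interval -2.53 to -0.42), or 0.360 times. None of them passed over all genes, with limma adjusted p of 0.355, 0.228 and 0.228. Limma called 16 genes higher (0.289%) and 1 lower (0.0181%) in this comparison. Among all differences, 58, 30 and 41 genes were as low as Tph2, Slc6a4 and Maob or lower (1.05%, 0.542% and 0.740%). The exact permutation p was 0.2 for each of the 3 genes, the smallest that 3 against 2 allows. Without IP 1 as well, which leaves 2 IP against 2 Input libraries, Slc6a4 and Maob were called lower by limma (differences of -1.18 and -1.08, adjusted p = 0.0490 and 0.0301) and Tph2 was not (-0.84, adjusted p = 0.0809). In that fit 187 genes (3.38%) were called higher and 160 (2.89%) lower. No permutation test was run for it, and the 2 libraries left out held the lowest value of each of the 3 genes within their group.

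The libraries that carry the same number gave different pictures. Relative to the median gene, IP 1 minus Input 1 was -2.69 for Tph2, -2.59 for Slc6a4 and -2.56 for Maob on the log2 scale. IP 2 minus Input 2 was -0.37, -0.51 and -0.74, and IP 3 minus Input 3 was 1.61, 1.66 and 1.61. The 3 genes gave similar values within a number, but the direction in number 3 was opposite to that in numbers 1 and 2.

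Of 51 genes in 7 lists of the serotonin pathway, 18 had values, 15 of them besides Tph2, Slc6a4 and Maob. None of the 15 was called in either comparison. Against Inputs 1 and 2, 10 of the 15 had a difference below 0, where 50.5% of all genes did, and 9 had every IP library under both Inputs, against 20.2% of all genes. Their median log2 difference was -0.45 against Inputs 1 to 3 and -0.89 against Inputs 1 and 2, where the median over all genes was 0.02 and -0.01. With 2 IP against 2 Input libraries, 6 of the 15 (Ddc, Gch1, Gchfr, Qdpr, Pcbd1 and Aldh1a1) were called lower by limma and 0 higher, against 2.89% and 3.38% of all genes. Genes of other lists were called lower by limma in that fit too: the astrocyte genes Ntsr2 (-1.23, adjusted p = 0.0063) and Agt (-1.24, adjusted p = 0.0247), the myelin gene Mal (-1.06, adjusted p = 0.0491) and the peptide genes Cartpt (-1.07, adjusted p = 0.0146) and Ucn (-0.90, adjusted p = 0.0407). Of the 6 measured oligodendrocyte genes, Mal was the only 1 called in that fit, and their median was -0.52. Mbp (0.41) and Mobp (0.34) of that list lay above 0 there. Against Inputs 1 and 2, the medians of the measured oligodendrocyte genes (-1.08, 6 of 6 below 0) and astrocyte genes (-0.75, 3 of 5 below 0) also lay below 0, so low values were not particular to the serotonin pathway. The part of other cell types in the pathway values was not tested. All 10 transcription factors listed for serotonin neurons (among them Fev, Gata2, Gata3 and Lmx1b) and all 14 serotonin receptors had no row, so nothing is said of them here.

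**Figure D4:**
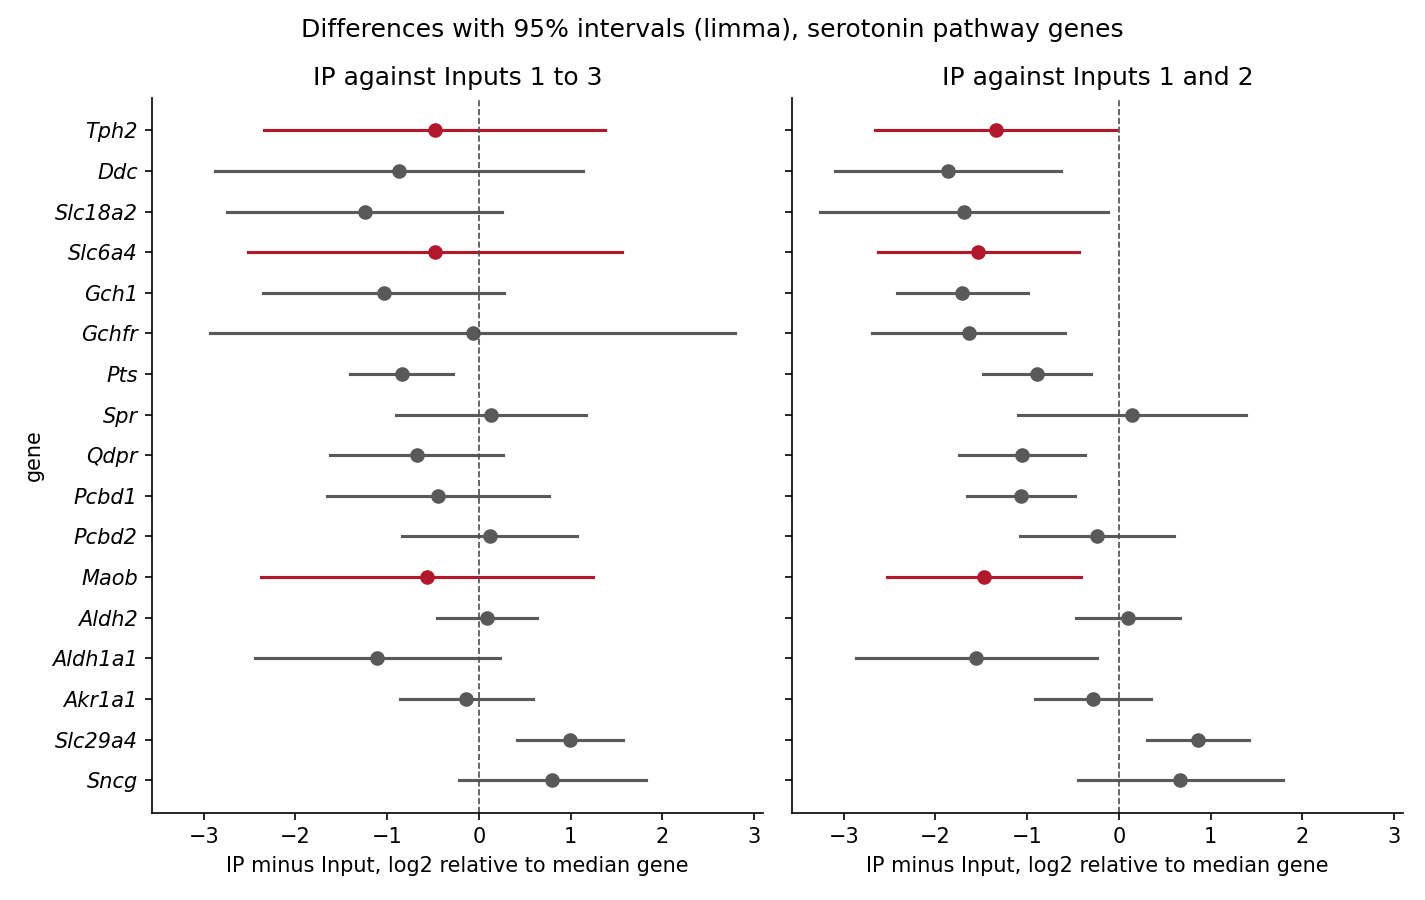
Log2 difference of IP minus Input relative to the median gene (points) with 95% limma intervals (lines) for 17 of the 18 measured genes of the serotonin pathway lists, against Inputs 1 to 3 (left) and Inputs 1 and 2 (right), with Tph2, Slc6a4 and Maob in red. The intervals of these 3 genes cross 0 on the left (Tph2 -2.35 to 1.38) and lie below 0 on the right (Tph2 -2.65 to -0.03), where none passed after adjustment over all genes.

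The other genes of synthesis and storage had low values in IP relative to Inputs 1 and 2. Ddc had a log2 difference of -0.87 (SE 0.86) against Inputs 1 to 3 and -1.86 (SE 0.51; limma adjusted p = 0.210) against Inputs 1 and 2. Slc18a2, the vesicular transporter, stood at 8.53, 91.1 and 49.4 TPM in IP 1 to 3 and at 208, 142 and 31.9 TPM in Inputs 1 to 3, a difference of -1.69 (SE 0.65) against Inputs 1 and 2. Unlike Tph2, Slc18a2 was lower in IP 1 than in Input 3.

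Tph2 needs tetrahydrobiopterin, a cofactor made by Gch1, Pts and Spr and recycled by Pcbd1 and Qdpr, and Gchfr binds Gch1 and restrains it. Of the 8 listed genes 7 had values, and 6 of these had a difference below 0 against Inputs 1 and 2, with a median of -1.06. Gch1 stood at 11.97, 34.98 and 37.7 TPM in IP 1 to 3 and at 148, 112 and 14.5 TPM in Inputs 1 to 3, with a difference of -1.71 (SE 0.29; limma adjusted p = 0.108) against Inputs 1 and 2. Gchfr did not follow Tph2 through the libraries. It stood at 139, 118 and 129 TPM in IP 1 to 3, whereas Input 1 held 749, Input 2 held 496 and Input 3 held 10.2 TPM. By TPM, the IP libraries were thus alike in Gchfr (129 ± 10.4 TPM, SD, n = 3), including IP 1, where Tph2 was low. Relative to the median gene they were not, with Gchfr at 5.03 times in IP 1, 2.09 times in IP 2 and 2.53 times in IP 3. Tph2 over Gchfr was 0.870 in IP 1, 6.46 in IP 2, 4.47 in IP 3, 2.39 in Input 1, 2.36 in Input 2 and 11.3 in Input 3. Pts, with 26.6, 51.0 and 65.3 TPM in IP and 128, 127 and 54.2 TPM in Input, was the 1 pathway gene with all IP libraries below all 3 Inputs relative to the median gene (difference -0.84, SE 0.24; limma adjusted p = 0.649), as 538 genes (9.71%) were.

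Among the 5 measured genes of monoamine breakdown, Maob and the retinal dehydrogenase Aldh1a1 (differences of -1.48 and -1.56 against Inputs 1 and 2) had the lowest differences. Aldh2, which oxidises aldehydes formed by monoamine oxidases, had 58.4, 112 and 88.7 TPM in IP 1 to 3 and 131, 107 and 57.5 TPM in Inputs 1 to 3 (difference 0.10, SE 0.24, against Inputs 1 and 2). Maoa had no row.

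A pair of pathway genes lay on the other side. Slc29a4, a low-affinity monoamine transporter, stood at 47.6, 73.8 and 65.6 TPM in IP 1 to 3 and at 48.9, 53.2 and 17.8 TPM in Inputs 1 to 3. Sncg, gamma-synuclein, known from several classes of projection neuron, stood at 928, 714 and 701 TPM in IP and at 702, 775 and 268 TPM in Input. Relative to the median gene both lay above all 3 Inputs in all IP libraries, as 384 genes (6.93%) did, with differences of 0.998 (SE 0.25) and 0.80 (SE 0.44) against Inputs 1 to 3 and limma adjusted p of 0.649 and 0.688.

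Markers of other cells in the tissue varied between the libraries as well. Of 10 astrocyte markers, 5 had values, and these did not move together. Gfap stood at 67.3 TPM in Input 3, above its 21.7 and 35.8 TPM in Inputs 1 and 2. Relative to the median gene, Input 3 minus the mean of Inputs 1 and 2 was -0.02 for S100b, -1.58 for Glul, -2.41 for Agt and -3.07 for Ntsr2 on the log2 scale. Their summed level, 261 to 480 TPM in IP, 778 and 851 TPM for Inputs 1 and 2 and 230.3 TPM for Input 3, hides these opposite directions. Aldh1l1, Aqp4, Slc1a2, Slc1a3 and Gja1 had no row. The ratio of Maob to these genes covered a 1.92-fold range for Agt, 1.997-fold for Ntsr2, 2.61-fold for Glul, 11.1-fold for S100b and 54.3-fold for Gfap, where its ratio to Tph2 covered 1.30-fold. No cell source of Maob can be read from these ranges. The 4 measured of 8 dopaminergic genes, 3 of which are shared with the serotonin lists, summed to 76.1 to 497 TPM across the IP libraries, to 1441 and 1171 TPM for Inputs 1 and 2 and to 133 TPM for Input 3. Th, the tyrosine hydroxylase that marks catecholamine neurons, did not follow Tph2 as closely as Ddc did. Tph2 over Th stood at 12.8 in Input 1, 5.28 in Input 2 and 4.06 in Input 3. In IP 1, IP 2 and IP 3 it stood at 10.7, 8.52 and 5.74. The 6 measured of 8 oligodendrocyte genes, led by Mbp, summed to 365, 2920 and 4437 TPM in IP 1 to 3 and to 4108, 4877 and 536 TPM in Inputs 1 to 3. The 9 pan-neuronal genes summed to 3449, 7030 and 6526 TPM in IP and to 8190, 8436 and 4620 TPM in Input. The part of these other cells in the serotonin values was not tested. None of the 4 noradrenergic markers, such as Dbh and Slc6a2, had a row, nor did Hdc, the marker of histamine neurons.

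Cholinergic genes lay on the other side. Of the 5 measured, led by Slc18a3 and Prph, 0 had a difference below 0 in either comparison, with a median of 1.28 against Inputs 1 to 3 and 1.61 against Inputs 1 and 2. Limma called none of the 5, with adjusted p from 0.649 to 0.732 against Inputs 1 to 3 and from 0.0732 to 0.225 against Inputs 1 and 2. All IP libraries lay above all 3 Inputs for 3 of the 5, where 6.93% of all genes did so. Slc18a3, the vesicular acetylcholine transporter, overlapped: at 5.68 times the median gene in Input 3, it lay above IP 2 (3.81 times) and IP 3 (2.59 times). With 2 IP against 2 Input libraries, limma called all 5 higher (adjusted p from 0.0035 to 0.0470). The ratio of Tph2 to Chat, the acetylcholine-synthesising enzyme, was 51.6 and 32.5 in Inputs 1 and 2 and 2.89 in Input 3. In IP 1, IP 2 and IP 3 it was 2.85, 6.68 and 7.35. Against the Edinger-Westphal peptide gene Cartpt, the ratio of Tph2 was 0.801, 0.423 and 0.279 in Inputs 1 to 3 and 0.1495, 0.814 and 0.574 in IP 1 to 3, so the groups overlapped.

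When each library was centred on the pan-neuronal genes in place of the median gene, the differences against Inputs 1 and 2 were -0.81 for Tph2, -0.998 for Slc6a4 and -0.94 for Maob (SE 0.51, 0.41 and 0.40), and none was called by limma. Against Inputs 1 to 3 they were -0.28, -0.28 and -0.36. This scaling was added after the data were seen, and it moved the median gene to 0.53 and 0.22 in the 2 comparisons.

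Across the 6 libraries, the centred values of Tph2 correlated with those of Maob at r = 0.991, of Ddc at 0.984 and of Slc6a4 at 0.977, and Slc6a4 with Maob at 0.986. These are descriptions over 6 points that share the contrast between Inputs 1 and 2 and the remaining libraries. The pattern was not confined to serotonin genes: 206 of the 5537 other genes (3.72%) correlated with Tph2 at 0.9 or more, and 177 (3.20%) and 208 (3.76%) did with Slc6a4 and Maob. The genes most like Tph2 were Tmem130 (0.991), Zfr (0.989), Maged1 (0.988), Psip1 (0.986) and Ddc. Those most like Slc6a4 were Glul (0.991), Eno1 (0.990), Tmem130 (0.990), Slc10a4 (0.984) and mt-Nd1 (0.983). Those most like Maob were Ddc (0.994), Glul (0.992), Tmem130 (0.990), Tspan3 (0.985) and Stip1 (0.980). Tmem130 stood in all 3 groups, with 87.2, 351 and 256 TPM in IP 1 to 3 and 584, 514 and 76.7 TPM in Inputs 1 to 3. Its range was 7.61-fold, narrower than those of Tph2, Slc6a4 and Maob.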

How the data were processed

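RNA-seq libraries labelled IP and Input (3 each) were grouped by their titles. The authors deposited 1 table of TPM for 5538 genes, named in its header line for all 6 value columns, all used here. RSEM, DESeq and mm10 are named in the submitters' processing notes, without versions or roles. Which aligner was used is not given in the sources here. TPM keep no depth, so that of each library is unknown, and genes low in any library have no row.

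TPM were transformed to log2(TPM + 1) and the value of the library's median gene was subtracted. IP was compared with Input, with group as the only term, by limma 3.58.1 in R 4.3.3 (lmFit, eBayes with a variance trend) over all genes, with Benjamini-Hochberg adjustment and a threshold of 0.05. The fit was tested on simulated data with equal spread in all libraries and none standing apart. That test does not show how the fit behaves with libraries such as IP 1 and Input 3. Fits with libraries left out or with a block were not simulated. Fold changes on this scale understate changes of low genes. Without centring, the median gene differed by -0.23 against Inputs 1 to 3 and by -0.60 against Inputs 1 and 2. P-values measure the spread between pools of mice. Exact permutation tests used scipy 1.17.1.

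The 3 genes, 19 lists (114 genes, 52 with values) and Input 3 as the library to leave out were chosen with earlier results of these data known. Of the pathway lists any measured gene could be named, and of other lists the 2 with the highest mean TPM. Further genes were named beside a result that turns on them (such as Chat, Th, Gfap and Ntsr2), as list contents or as genes with no row, and these were not picked by that rule. For each of the 3 genes, the 5 genes with the highest Pearson r over the 6 libraries were named, leaving out gene models, pseudogenes and genes under the median mean TPM. Some results are not reported here. Motif matches were exact. Alternatives were no centring, quantile normalization, a pseudocount of 0.1, a mean TPM of at least 20, no variance trend, the replicate number as a block, each library left out, IP 1 and Input 3 left out together, and centring on pan-neuronal genes.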

Additional observations from a re-analysis of the deposited data

How the results depend on the processing

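Against Inputs 1 to 3, leaving out single libraries moved the log2 difference of Tph2 between -1.34 and 0.11, of Slc6a4 between -1.53 and 0.22 and of Maob between -1.48 and 0.04, with the lowest value without Input 3 and the highest without Input 1. Above 0 were Tph2 (0.11), Slc6a4 (0.22) and Maob (0.0363) without Input 1 and Tph2 (0.02) without IP 1. Without IP 1 and Input 3 together, Slc6a4 (-1.18) and Maob (-1.08) were called by limma and 347 genes were called in all, against 0 with all libraries. Leaving out single libraries gave 0 to 17 called genes, with 17 without Input 3. Against Inputs 1 and 2, leaving out single libraries gave -1.68 to -0.84 for Tph2, -1.89 to -1.18 for Slc6a4 and -1.77 to -1.08 for Maob, and 8 to 347 called genes. Leaving out IP 1 there gives the same fit as leaving out IP 1 and Input 3 together, so Slc6a4 (-1.18), Maob (-1.08) and the 347 genes are no second result. Over all alternatives of that comparison the limma adjusted p ran from 0.0809 to 0.995 for Tph2, from 0.0490 to 0.995 for Slc6a4 and from 0.0216 to 0.995 for Maob. The called genes were 42 under quantile normalization and 136 with centring on pan-neuronal genes, against 17. In fits that leave 1 Input library, that library is assumed to vary like the IP libraries. The cause of these changes was not tested.

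With the replicate number as a block, Maob against Inputs 1 and 2 was called (-1.65, limma adjusted p = 0.0216), as were 304 genes, and no other call among the 3 genes changed. IP 3 has no partner in that fit and adds nothing to the difference. The difference rests on numbers 1 and 2 alone, which for Maob gave -2.56 and -0.74. With so few differences, the spread of each gene was taken largely from other genes. The smallest limma adjusted p over all genes in that fit was 1.79e-71, so its calls are not relied on here. Deviations from the group means correlated across genes at -0.10, 0.25 and -0.17 for numbers 1, 2 and 3. IP 1 correlated best with Input 3 (0.19), IP 2 with Input 2 (0.25) and IP 3 with Input 1 (0.15). The deviations within a group of 3 depend on each other, so these values cannot show whether shared numbers mark shared pools. All other alternatives run kept the direction and side of the threshold of the 3 genes.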
